A study of Caenorhabditis elegans with 6 samples.

Results

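The arrays described here carried a high signal of the yolk gene vit-2, and they were 3 of the 6 arrays of a study of food colorants in the nematode Caenorhabditis elegans. They were chosen by their own values: an array was called yolk-high where the log2 signal of vit-2 exceeded 5 and yolk-low where it did not. The yolk-high arrays were Ponceau Red array 2, tartrazine array 1 and tartrazine array 2. The yolk-low arrays were water array 1, water array 2 and Ponceau Red array 3. No array lay near the threshold, since the lowest vit-2 signal above it was 9.64 log2 and the highest below it was 2.22 log2. The array numbers are those in the column names of the deposited table and are not the trial numbers of the labels. In a second deposited table, by labelled trial, vit-2 read 10.95 log2 in Ponceau Red trial 1 and 1.87 in trial 2. By this signal Ponceau Red array 2 goes with trial 1 and array 3 with trial 2.

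All 6 arrays held RNA of whole animals of the wild-type strain N2 at an age of 3 days, and the labels call every group young adult. The Ponceau Red and tartrazine groups received 100 µM of the named dye in S medium for 48 h at 20 °C, beginning 16 to 18 h after hatching, and the water group received none. Ponceau Red and tartrazine are synthetic azo dyes. There were 2 arrays under each of the 3 labels, so the split by vit-2 follows the labels for water and tartrazine and divides the Ponceau Red pair. Yolk level varies at a constant label only between the Ponceau Red arrays, and dye against water at a low vit-2 signal only between Ponceau Red array 3 and the water arrays.

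Vitellogenins are the yolk proteins of the worm. The adult hermaphrodite intestine makes them in bulk and growing oocytes take them up through the receptor RME-2. Before adulthood the animal sheds and rebuilds its collagen cuticle at the end of each larval stage, and many collagen, hedgehog-related and moulting genes peak once in each of these cycles. The germ line grows through the late larval stages, makes sperm and then switches to oocytes, which are stocked with RNA-binding proteins, eggshell proteins and cell cycle proteins for the embryo.

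Signals are log2 values per probe set from robust multi-array averaging (RMA). Those of the yolk-high arrays are given in the order Ponceau Red array 2, tartrazine array 1, tartrazine array 2, and those of the yolk-low arrays in the order water array 1, water array 2, Ponceau Red array 3. The gap of a gene is the distance between the sets: the lowest yolk-high signal less the highest yolk-low one, or the reverse with a minus sign where all yolk-high arrays read lower, and 0 where the sets overlap. The middle difference is the median yolk-high signal less the median yolk-low one. Because vit-2 on these same arrays made the sets, no gene was tested between them and the values are descriptions. The array medians were 2.13 to 2.22 log2 in the yolk-high arrays and 2.17 to 2.40 log2 in the yolk-low arrays, so where a gene reads near these values in a set its difference is a lower bound. Across 27055 probe sets the arrays correlated at 0.980 to 0.991 among the yolk-high arrays, at 0.987 between the water arrays, at 0.918 and 0.933 between Ponceau Red array 3 and the water arrays, and at 0.803 to 0.843 between the sets.

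Of 27055 probe sets with a gene symbol, 2163 read at least 1 log2 (2-fold) higher on every yolk-high array than on every yolk-low array, which is 7.99%. In the other direction 1155 did, or 4.27%. With 1 probe set for each of 26750 genes the counts were 2153 (8.05%) and 1146 (4.28%). A gap of any size was met by 5664 genes (21.2%) above and 5977 (22.3%) below. The lower count was held down by 1 array: without Ponceau Red array 3 it rose from 1155 to 2347 probe sets. Leaving out an array can only keep or raise such a count. Over the 19183 coding genes alone, the shares at 1 log2 were 11.1% higher and 5.48% lower, as few of the 6759 genes of non-coding RNA separated. These coding shares are the background for the lists below, and nothing is read from a count beyond its description.

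The 6 vitellogenin genes, 1 of which made the split, had a median middle difference of 8.39 log2, which the choice of arrays set. The gene vit-2 read 10.76, 9.64 and 9.99 log2 on the yolk-high arrays, against 1.75, 2.22 and 1.83 on the yolk-low arrays. The gene vit-6, which encodes the precursor of 2 yolk polypeptides, read 11.01, 10.59 and 10.93, against 1.89, 2.11 and 1.63, a gap of 8.48 log2 (at least 356-fold, as the yolk-low signals lie below the array medians). Signals of vit-5 were 10.95, 10.18 and 10.86 on the yolk-high arrays, and 3.00, 2.38 and 1.84 on the yolk-low arrays. For vit-1, vit-3 and vit-4 the gaps were 6.47, 6.92 and 7.75 log2. On the yolk-low arrays the 6 genes read near or below the array medians, apart from vit-5 at 3.00 on water array 1. Tartrazine array 1 had the lowest yolk-high signal for each of the 6 genes, 9.19 for vit-3 against 10.39 on tartrazine array 2. The vitellogenin genes share sequence, so the signal of 1 can include others.

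**Figure D1:**
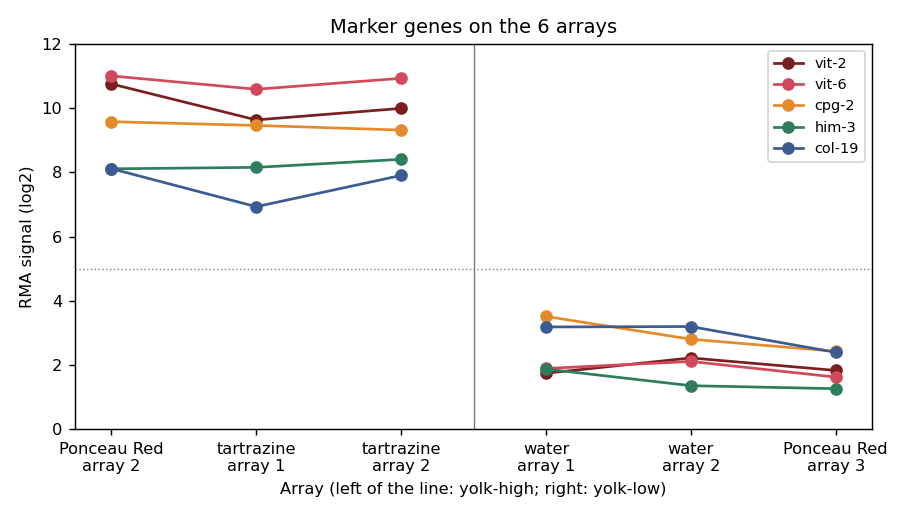
RMA signal (log2, vertical axis) of vit-2, vit-6, cpg-2, him-3 and col-19 on each array, with the yolk-high arrays left of the vertical line and the yolk-low arrays right of it; points are single arrays and the dotted line is the vit-2 threshold of 5 log2. Each of the 5 genes lies above 6.9 log2 on the yolk-high arrays and below 3.6 log2 on the yolk-low arrays.

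Genes of yolk uptake and the eggshell separated with the yolk. The yolk receptor gene rme-2 read 7.16, 6.61 and 7.14 log2 on the yolk-high arrays, against 1.78, 1.73 and 1.83 on the yolk-low arrays. The chondroitin proteoglycan gene cpg-2, whose product is built into the eggshell, read 9.58, 9.46 and 9.32, against 3.51, 2.81 and 2.43. Its relatives read alike, cpg-1 at 9.86, 9.48 and 9.54, against 3.82, 3.15 and 2.77, and cpg-3 at 9.52, 9.34 and 9.69, against 2.25, 2.60 and 2.07. The chitin synthase gene chs-1, which makes the chitin layer, had 7.54, 7.32 and 7.74 on the yolk-high arrays, against 2.90, 2.89 and 3.24. Of 15 genes 14 read at least 1 log2 higher on all yolk-high arrays and none lower, with a median middle difference of 4.87 log2 against -0.03 for all genes. The exception was mbk-2, a kinase gene of the oocyte-to-embryo transition, at 5.88, 5.61 and 5.77 on the yolk-high arrays and 6.54, 6.58 and 7.23 on the yolk-low arrays.

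Maternal RNA-binding genes gave a similar picture. For pos-1, which encodes a zinc finger protein required for cell fates in the early embryo, the signals were 9.19, 9.08 and 8.84 log2 on the yolk-high arrays, against 3.62, 2.47 and 1.69 on the yolk-low arrays. For mex-5, whose protein sets up the head-to-tail axis of the zygote, they were 9.57, 9.68 and 9.66, against 4.68, 3.61 and 3.47. The oocyte maturation gene oma-2 read 8.85, 8.65 and 8.56, against 4.07, 2.73 and 3.26. The Pumilio-family gene puf-5 read 8.30, 7.81 and 7.91, against 2.50, 1.96 and 1.89. In all, 15 of 16 genes read at least 1 log2 higher, with a median middle difference of 4.92 log2. The remaining gene, lin-41, acts both in oocytes and in the larval timing of the skin, and read 6.74, 6.61 and 6.58 against 6.78, 7.09 and 6.93. The yolk-low arrays were not uniform in this list: its median signal was 3.83 log2 on water array 1, 2.79 on water array 2 and 2.14 on Ponceau Red array 3.

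Meiotic chromosome genes were higher on the yolk-high arrays, 22 of 24 by at least 1 log2, with a median middle difference of 3.26 log2. The chromosome axis gene him-3 read 8.11, 8.16 and 8.41 log2 on the yolk-high arrays, against 1.88, 1.36 and 1.26 on the yolk-low arrays. The pairing-centre gene zim-2 read 7.54, 7.77 and 7.61, against 2.67, 2.27 and 2.76. The gene spo-11, for the enzyme that cuts DNA to start recombination, had 5.21, 5.83 and 5.46, against 1.38, 1.73 and 2.32. The other members, him-17 and coh-4, had gaps of 0.59 and 0.64 log2, so all 24 separated in 1 direction.

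Genes of germ cells at all stages separated less widely, 11 of 15 by at least 1 log2 with a median middle difference of 2.55 log2. The Argonaute gene wago-1 read 9.01, 8.28 and 8.57 log2 on the yolk-high arrays, against 3.91, 3.07 and 3.07 on the yolk-low arrays. The germ granule gene pgl-3 read 6.12, 6.49 and 6.12, against 2.67, 2.33 and 1.88. The Notch receptor gene glp-1, which keeps germ line stem cells dividing, had 5.32, 5.23 and 5.90 against 3.19, 3.01 and 2.74. The stem cell regulator fbf-1 had a gap of 0.75 log2, and the signals of its close relative fbf-2, from 1.72 to 1.90 on the yolk-high arrays and from 1.64 to 2.56 on the yolk-low arrays, overlapped near background. In RNA of whole animals, fewer cells of a type and less RNA per cell cannot be told apart.

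Most cell division genes read higher on the yolk-high arrays. The B-type cyclin gene cyb-1 read 8.12, 7.72 and 7.32 log2 on the yolk-high arrays, against 4.44, 4.29 and 3.84 on the yolk-low arrays. The Aurora kinase gene air-2 read 6.34, 6.89 and 6.48, against 3.10, 3.60 and 2.11. The origin recognition gene orc-1 had 6.08, 6.07 and 6.05 against 2.34, 2.71 and 2.84. Of 26 genes 20 had a gap of at least 1 log2 upwards and none downwards, with a median middle difference of 2.00 log2. On Ponceau Red array 3 the median signal of this list was 4.03 log2, below the 4.81 and 4.83 of the water arrays.

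Genes first switched on in the embryo were mostly near background on all arrays. The endoderm genes end-1 and end-3, which specify the gut lineage, read no higher than 1.62 and 1.92 log2 on the yolk-high arrays and 1.91 and 1.97 on the yolk-low arrays. The median middle difference of the 14 genes was 0.04 log2. Those with a gap of at least 1 log2 upwards were pal-1, whose mRNA is also maternal, at 7.58, 7.69 and 7.46 against 5.0, 5.03 and 4.24, and sdz-27, at 4.31, 4.32 and 4.65 against 1.41, 1.18 and 1.46. The gene med-2, for a transcription factor of the mesendoderm, had 1.50, 1.58 and 1.82 on the yolk-high arrays, and 3.05, 3.67 and 3.98 on the yolk-low arrays.

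Sperm genes were uneven among the yolk-high arrays. The major sperm protein gene msp-45 read 4.63 log2 on Ponceau Red array 2, 6.94 on tartrazine array 1 and 6.82 on tartrazine array 2, against 2.62, 1.86 and 1.49 on the yolk-low arrays. The sperm gene nspd-10 read 4.13, 6.38 and 6.46, against 1.56, 1.75 and 1.90. Ponceau Red array 2 was thus more than 2 log2 below both tartrazine arrays for each of them. It was not lowest throughout, as ssp-37 read 5.68 there and 4.31 on tartrazine array 1. Of 26 measured msp genes 7 had a gap of at least 1 log2 upwards and of 28 other sperm genes 6 did, with none downwards in either list. The median middle differences were 1.37 and 0.37 log2. For 13 of the msp genes and 18 of the others every yolk-low signal was below the lowest of the 3 yolk-low array medians. The msp genes are near-identical copies, so their signals are not independent.

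A switch within a gene pair was seen among the ribosomal protein genes. The gene rpl-11.1 read 10.26, 10.58 and 10.51 log2 on the yolk-high arrays, against 8.21, 7.69 and 7.89 on the yolk-low arrays. Its paralogue rpl-11.2 read 9.41, 9.17 and 9.0, against 10.81, 10.65 and 10.59. They were the only members of the 65 genes with a gap of at least 1 log2. The list as a whole was lower by a median of 0.32 log2 on the middle arrays (middle difference -0.32), and 41 genes had a gap of some size downwards. Under a rescaling by array medians all genes shifted to a median middle difference of 0.17 log2, so a list shift of this size is not separable from the scale.

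**Figure D2:**
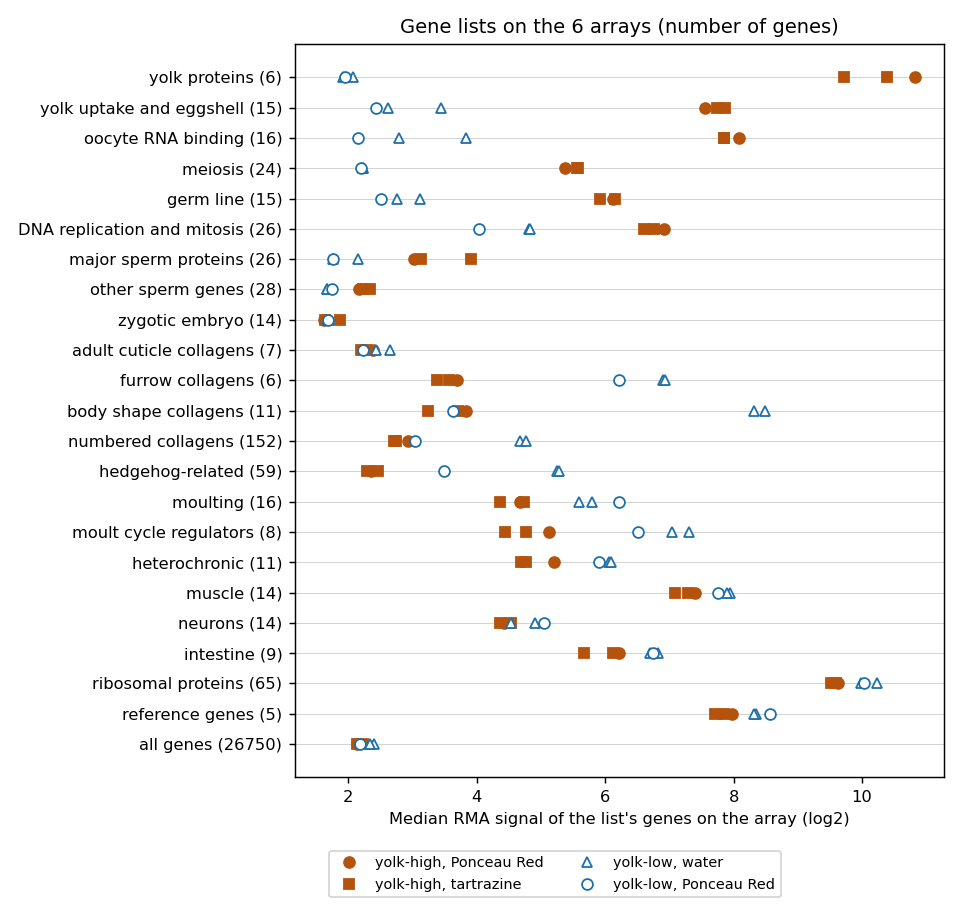
Median RMA signal (log2, horizontal axis) of the genes of each list on each array, with the number of genes in brackets; filled symbols are yolk-high arrays, open symbols yolk-low arrays, and the shape gives the label. The lists from yolk proteins to DNA replication and mitosis lie to the right on the filled symbols, and for the body shape and numbered collagens the open circle of Ponceau Red array 3 lies with the filled symbols.

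The label of an adult against a pre-adult state is set here beside the cuticle genes, on the same arrays that vit-2 divided. The adult collagen gene col-19, a standard reporter of the adult skin, read 8.12, 6.93 and 7.91 log2 on the yolk-high arrays, against 3.19, 3.20 and 2.40 on the yolk-low arrays, a gap of 3.73 log2. It was alone: the other 6 measured genes on a list of 8 adult cuticle collagens overlapped or nearly so. They include bli-1 and bli-2, collagens of the struts that join the layers of the adult cuticle. For bli-1 the signals were 2.39, 2.17 and 2.14, against 2.78, 2.44 and 2.55. Those of bli-2 were all between 1.68 and 1.93. The col-19 signals were high on the arrays called adult. As a marker chosen with earlier results of these data known, col-19 does not test the label. The rest of the adult collagen list read near background on all arrays. The yolk list cannot bear on the label, since vit-2 made the split. Stage was not recorded array by array in the files used here.

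Of 152 collagens with a number for a name, 37 read at least 1 log2 lower and 16 at least 1 log2 higher on the yolk-high arrays. The upward share, at 10.6% of the 151 coding ones, was near the 11.1% of all coding genes, and the downward share was 24.5% against 5.48%. Among the higher ones were col-143, at 10.74, 10.88 and 10.98 log2 against 1.69, 2.35 and 2.99, a gap of 7.76 log2. The gene col-119 read 10.06, 9.03 and 9.33, against 1.65, 1.80 and 1.81. Signals of col-106 were 9.26, 8.64 and 8.73 on the yolk-high arrays, against 2.09, 1.97 and 2.21. Their gaps of 6.42 to 7.76 log2 were wider than that of col-19. The lower ones held the widest downward gap among genes with a name, col-123, at 2.71, 2.90 and 2.82 on the yolk-high arrays, against 8.80, 8.81 and 8.06 on the yolk-low arrays (35.9-fold). For col-44, col-163, col-114, col-102 and col-45 the gaps were -4.83, -4.81, -4.78, -4.70 and -4.57 log2, so each read at least 23.8-fold lower. The median middle difference of the list was -1.64 log2. Collagen genes share sequence, and a signal can include that of a relative.

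Collagens of the furrows, the circumferential grooves of the cuticle, read lower on the yolk-high arrays. The gene dpy-3 read 3.69, 3.20 and 3.59 log2 on the yolk-high arrays, against 7.58, 7.61 and 6.52 on the yolk-low arrays. The gene dpy-8 read 3.69, 3.57 and 3.64, against 7.54, 7.78 and 6.61. Of the 6 genes 5 had a gap of at least 1 log2 downwards, and dpy-10 had -0.97. The median middle difference was -3.13 log2. Ponceau Red array 3 read below the water arrays but above the yolk-high ones for each of them, as for dpy-7, at 3.81, 3.55 and 3.56 on the yolk-high arrays and 6.18, 6.18 and 5.23 on the yolk-low arrays.

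Body shape collagens, whose mutants are short or rolling, behaved differently on the yolk-low arrays. The gene sqt-2 read 3.84, 3.15 and 3.70 log2 on the yolk-high arrays, and 8.49, 8.31 and 3.62 on the yolk-low arrays. The gene dpy-13 read 6.04, 4.76 and 4.76, and 10.20, 10.03 and 6.42. In both, Ponceau Red array 3 lay close to the yolk-high arrays and far from water. By contrast rol-8 read 4.73, 4.97 and 4.24, against 9.76, 9.60 and 8.39, with all 3 yolk-low arrays high. Only rol-8 and dpy-5 of 11 genes had a gap of at least 1 log2, although the median middle difference was -3.99 log2. Between the Ponceau Red arrays, which share a label, the median difference of the list was -0.21 log2, against -4.21 log2 between tartrazine and water.

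Hedgehog-related genes, which encode secreted proteins, many of them made by the skin, were lower for 22 of 59 genes and higher for none at a gap of 1 log2. The gene grl-3 read 2.40, 2.72 and 2.70 log2 on the yolk-high arrays, against 8.44, 8.74 and 7.36 on the yolk-low arrays. The gene grl-19 read 2.00, 3.23 and 2.24, against 8.91, 8.76 and 7.51. For grl-9 the signals were 2.25, 2.65 and 2.15, against 7.80, 7.71 and 7.07. The median middle difference was -1.96 log2. The cuticlin-family gene cut-5 read 1.88, 1.95 and 2.09 on the yolk-high arrays, against 6.88, 6.76 and 6.78 on the yolk-low arrays.

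Moulting genes were lower for 7 of 16. The gene mlt-8, named for its moulting defect, read 4.94, 4.04 and 4.67 log2 on the yolk-high arrays, against 9.25, 9.10 and 8.29 on the yolk-low arrays. The gene acn-1, for a peptidase-like protein needed to shed the cuticle, read 5.52, 4.94 and 5.05, against 8.64, 8.65 and 8.58. The Patched-related gene ptr-4 had 4.08, 3.93 and 4.08 against 7.25, 7.44 and 7.46. The apical matrix gene noah-2 read 6.27, 4.94 and 5.40, against 9.25, 9.33 and 8.78. In these genes the 3 yolk-low arrays were alike to within 1 log2. The metalloprotease gene nas-37, for an enzyme that helps to open the old cuticle, read the other way, at 6.07, 5.89 and 6.30 on the yolk-high arrays and 4.99, 5.27 and 3.78 on the yolk-low arrays, a gap of 0.62 log2.

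Of the regulators of the moult cycle 4 of 8, and of developmental timing 3 of 11, read at least 1 log2 lower on the yolk-high arrays, with 0 higher. The Period-related gene lin-42, which paces the moults, read 4.08, 3.50 and 3.17 log2 on the yolk-high arrays, against 6.95, 7.02 and 5.72 on the yolk-low arrays. The transcription factor gene myrf-1 read 5.42, 4.53 and 4.51, against 7.28, 7.41 and 7.55. The other moult cycle regulators with such a gap were nhr-25 and blmp-1, and the median middle difference of that list was -1.70 log2. The steroid receptor gene daf-12 read 6.43, 6.41 and 5.99, against 8.28, 8.57 and 8.74. The gene hbl-1, for a factor that holds back adult fates in the skin, read 5.23, 4.38 and 4.83, against 6.66, 6.71 and 6.94. The gene lin-29, which drives the larval-to-adult switch of the skin, read 4.40, 3.82 and 4.20, against 6.31, 6.45 and 5.90. Those 3 were the heterochronic genes, of 11, with a gap of at least 1 log2. Of the early timing genes, lin-14 had a gap of -0.74 log2 and the sets overlapped for lin-28.

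Of 12 vulval genes 1 read at least 1 log2 higher and 1 lower, near the shares of all coding genes (11.1% and 5.48%). The epidermal growth factor gene lin-3, whose product induces the vulva and is also made elsewhere in the animal, read 5.40, 6.19 and 5.50 log2 on the yolk-high arrays, against 3.20, 3.26 and 3.54 on the yolk-low arrays. The zinc finger gene vab-23 read 3.80, 3.76 and 3.77, against 5.18, 5.45 and 5.50. The median middle difference of the list was -0.30 log2. Of 13 abu genes, several of which serve the cuticle of the pharynx, only abu-13 had a gap of at least 1 log2. It read 2.86, 2.64 and 2.44 against 5.80, 6.10 and 3.91. The count of 1 was also near the coding shares, and the median middle difference of the abu genes was -0.48 log2.

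Within the yolk-low set Ponceau Red array 3 stood apart from the water arrays. It read at least 1 log2 above both for 1236 of 26750 genes (4.62%) and at least 1 log2 below both for 1626 (6.08%). Collagen and hedgehog-related genes were among the lower ones: 52 of 152 numbered collagens, 24 of 59 hedgehog-related genes and 8 of 11 body shape collagens. The gene col-41 read 3.05 log2 on Ponceau Red array 3, against 7.91 and 7.65 on the water arrays, and wrt-4 read 3.01 on Ponceau Red array 3, against 7.04 and 7.34 on the water arrays. On the yolk-high arrays the 2 genes read from 2.75 to 3.47 and from 2.29 to 2.70. Higher on Ponceau Red array 3 was the fibrillin-related gene fbn-1, at 6.90 log2 against 5.10 and 5.03 on the water arrays, with 4.38, 3.24 and 3.71 on the yolk-high arrays. The desaturase gene fat-3 read 10.26 on Ponceau Red array 3 and 9.02 and 9.09 on the water arrays.

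**Figure D3:**
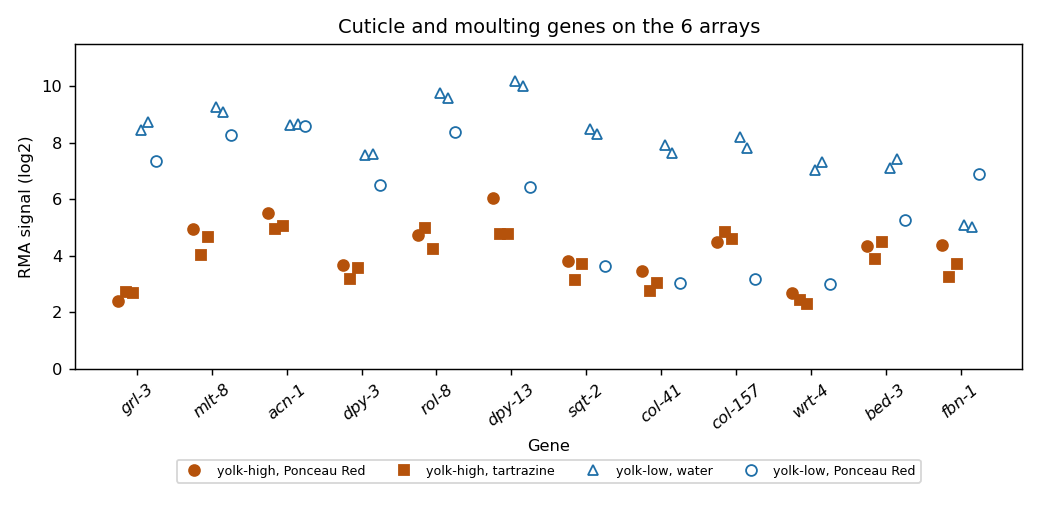
RMA signal (log2, vertical axis) of 12 cuticle and moulting genes on the 6 arrays; filled symbols are yolk-high arrays, open symbols yolk-low arrays, and the shape gives the label. For grl-3, mlt-8, acn-1, dpy-3 and rol-8 all open symbols lie above the filled ones, while for sqt-2, col-41, col-157 and wrt-4 the open circle of Ponceau Red array 3 lies among or below them or just above.

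The collagen gene col-93 showed a further arrangement. It read 7.21, 3.77 and 5.87 log2 on the yolk-high arrays, and 7.49, 7.05 and 2.22 on the yolk-low arrays. Ponceau Red array 2 was thus near the water arrays and Ponceau Red array 3 lowest of all. The gene col-157 read 4.51, 4.83 and 4.59 on the yolk-high arrays, and 8.20, 7.81 and 3.18 on the yolk-low arrays.

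Genes of other tissues moved less and mainly downwards. In muscle 1 of 14 genes had a gap of at least 1 log2 in each direction, near the shares of all coding genes (11.1% and 5.48%). The troponin I gene tni-3 was higher, at 6.73, 6.92 and 6.81 log2 against 5.63, 5.71 and 5.35. The myosin light chain gene mlc-1 was lower, at 6.07, 5.48 and 5.56 against 7.87, 7.72 and 7.56. Of 14 neuronal genes 3 were lower, all from neuropeptide secretion. They include sbt-1, a chaperone of the propeptide convertase, at 6.57, 6.16 and 5.81 on the yolk-high arrays, and 8.52, 8.20 and 9.59 on the yolk-low arrays. The others were ida-1 and egl-21. Of 9 intestinal genes the gut master regulator elt-2 was lower, at 5.45, 5.51 and 5.23 against 7.19, 7.60 and 8.36, and so was the intermediate filament gene ifb-2. The sets overlapped for 4 of the 9 genes, while over all genes they did so for 15109 of 26750, so nothing is read from that count. Between the Ponceau Red arrays the median difference of the intestinal list was 0.15 log2. The peptide transporter gene pept-1 read 4.49, 4.18 and 4.72 on the yolk-high arrays, and 5.20, 5.25 and 2.22 on the yolk-low arrays.

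Summed as linear signals and given as log2, the neuronal list ran from 10.22 to 10.36 on the yolk-high arrays and from 11.20 to 12.08 on the yolk-low arrays. The intestinal list ran from 10.18 to 10.93 and from 11.37 to 11.67, and the muscle list from 11.79 to 12.30 and from 12.53 to 12.70. For these lists the sets did not overlap, although for muscle the nearest values were 12.30 and 12.53. A distance as small as that is not separable from the scale. A sum of linear signals is carried by its brightest members and does not describe a whole list. In the intestinal list the brightest was asp-1, whose own sets overlapped, at 10.05, 8.90 and 9.46 against 10.42, 10.31 and 9.89. The 5 reference genes summed to 10.36 to 10.73 on the yolk-high arrays and to 10.66 to 11.13 on the yolk-low arrays, which overlapped but also ran lower. What part the neuronal, intestinal and muscle lists had in the other differences was not tested. The 4 male-specific neuron genes, with lov-1 and pkd-2 among them, summed to 3.57 to 3.80 on the yolk-high arrays and 3.65 to 3.89 on the yolk-low arrays, and 3 of the 4 stayed below the array medians on all arrays.

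Fatty acid desaturases, which make unsaturated fatty acids, had 0 of 7 genes with a gap of at least 1 log2 in either direction, with fat-1 at 10.86, 10.48 and 10.75 against 10.29, 10.32 and 10.79. Of 5 commonly used reference genes 0 had such a gap, and ama-1 read 6.51, 5.81 and 6.33 against 5.88, 5.78 and 6.33. In lists this short a count of 0 is near the shares of all coding genes, 11.1% higher and 5.48% lower. The median middle difference of the reference genes was -0.09 log2 and turned to 0.13 when each array was centred on its median.

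The sets can be compared in 2 ways that have no array in common: Ponceau Red array 2 less array 3, which holds the label constant, and tartrazine less water. By the choice of arrays both run from low to high vit-2. Over 27055 probe sets the differences correlated at 0.774, and at 0.785 over the 17566 with a signal above the median of all signals. Probe sets share their arrays and are not independent, so these are descriptions. Within Ponceau Red 6492 probe sets were 2-fold apart, of which 4506 (69.4%) were 2-fold apart the same way between tartrazine and water and 61 (0.94%) the other way. Between tartrazine and water 7233 were, of which 62.3% went the same way within Ponceau Red. The yolk proteins differed by a median of 8.88 log2 within Ponceau Red and 7.83 between tartrazine and water. For meiosis genes the values were 2.99 and 3.19, and for moulting genes -1.26 and -1.49. The body shape, numbered and hedgehog-related lists were far apart in size: -0.21 and -4.21, -0.19 and -1.81, and -0.49 and -2.28 log2. The neuronal list differed by -0.97 and -0.79 log2, and the intestinal list by 0.15 and -0.99, so that it changed sign.

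**Figure D4:**
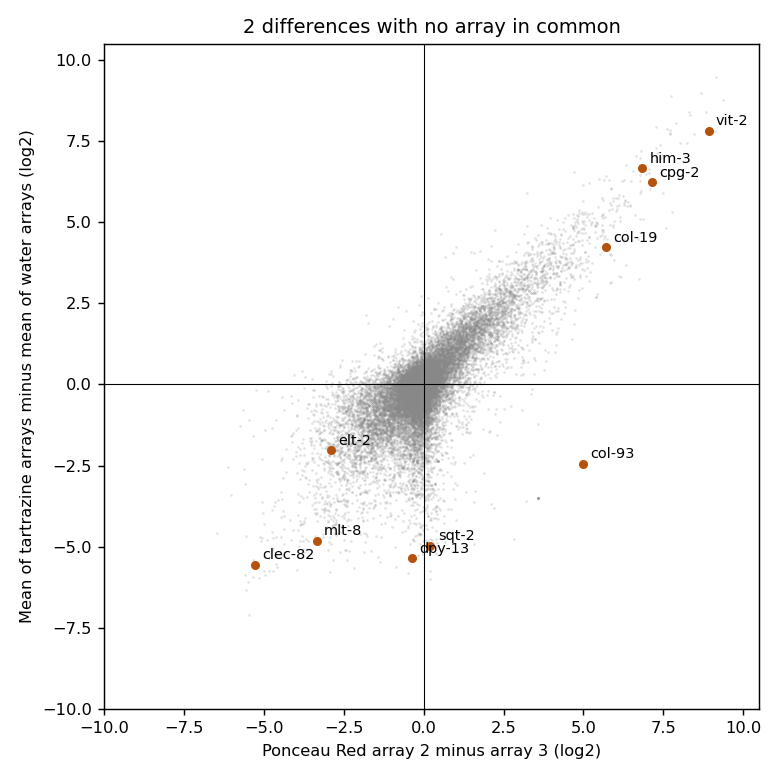
Difference between the Ponceau Red arrays (array 2 minus array 3, log2, horizontal axis) against the difference between the means of the tartrazine and water arrays (log2, vertical axis) for 27055 probe sets (grey), with 10 genes marked. The genes vit-2, him-3, cpg-2 and col-19 lie at the upper right and clec-82 and mlt-8 at the lower left, while sqt-2 and dpy-13 lie near 0 on the horizontal axis and col-93 lies at the lower right.

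Genes known only by a sequence name also separated widely. Chosen after their values were seen, F57C2.4 read 11.09, 11.07 and 11.26 log2 against 1.61, 1.78 and 1.92, a gap of 9.15 log2, and Y45F10C.2, D1054.10 and B0513.4 had gaps of 8.45, 8.09 and 8.04 log2. Their yolk-low signals lie below or near the array medians, so these gaps are lower bounds and their order is not determined. In the other direction C06E7.88 and C35A5.11 had gaps of -5.46 and -5.28 log2. Among genes with a name, ule-3 and ule-4, uterine lumen expressed genes, read 10.29, 10.08 and 10.34 against 3.00, 2.55 and 2.28, and 9.23, 8.55 and 9.43 against 1.17, 1.38 and 1.50. The transthyretin-related gene ttr-42 read 8.46, 8.28 and 8.89, against 1.45, 1.74 and 1.69. The C-type lectin gene clec-82 read 4.75, 4.46 and 4.19 on the yolk-high arrays, against 9.88, 9.89 and 10.02 on the yolk-low arrays. The gene dmd-10, of the doublesex-related family, read 3.39, 3.19 and 3.46 on the yolk-high arrays, and 8.55, 8.69 and 7.81 on the yolk-low arrays. The gene gtnt-21 read 1.08, 1.51 and 1.84, against 6.43, 6.33 and 6.22.

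By chromosome, in the annotation of RefSeq assembly WBcel235, coding genes that read at least 1 log2 higher on the yolk-high arrays were 16.6% of those on chromosome III, 16.3% on I, 12.8% on IV, 11.6% on II, 7.20% on V and 4.67% on X, against 11.1% over all 19183. The lower ones ran the other way: 9.07% on X, 5.51% on V, 5.03% on IV, 4.99% on II, 4.44% on III and 4.10% on I, against 5.48% in all. The X chromosome is known to be largely silent in germ cells of this worm, and what part that had in these shares was not tested. The vitellogenin genes apart from vit-6, which are intestinal genes, lie on X and are among its higher genes. Genes of non-coding RNA had a share of 0.0444% higher and 1.26% lower of 6759.

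**Figure D5:**
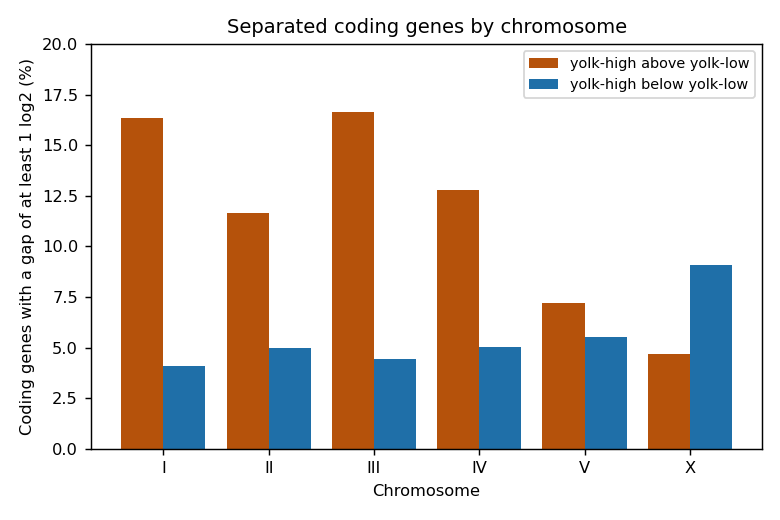
Percentage of coding genes on each chromosome that read at least 1 log2 higher (left bars) or lower (right bars) on all yolk-high than on all yolk-low arrays. Higher genes make up 16.6% on chromosome III and 4.67% on X, and lower genes 4.44% and 9.07%.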

How the data were processed

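The authors deposited log2 signals per probe set, made with RMA over 6 arrays per the submitters' processing notes and the file headers. Its version is not given in the sources used here. Biotin-labelled cDNA was made from 3.5 ng of RNA per the labels. A second deposited table of log2 values, 1 column per labelled trial, served as an alternative. The authors' deposited tables per colorant hold a linear ratio (fold change) and scores (sums of squares and F), per the file headers. Of 29317 probe sets, the 27055 with a gene symbol were kept, and the 2262 without one, which include all those marked for cross-hybridisation, were left out. Names came from RefSeq WBcel235 by accession (23508) or symbol (3301), and 246 kept the deposited name. No filter on low signal was used and nothing was tested, since the arrays were chosen by vit-2 on the same values. Precision is limited by the number of arrays. The members and lists were chosen with earlier results of these data known. By rule the named genes are the markers, the 12 coding genes with the widest gap each way among those with more than a sequence name, up to 4 per list by middle difference and, each way, 6 by Ponceau Red array 3 against water. Other genes named were chosen after their values were seen. Python 3.11.15, numpy 2.4.6 and pandas 2.3.3 were used, and the computation was tested on simulated data.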

Additional observations from a re-analysis of the deposited data

Results flagged for a closer look

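Flagged because a signal appeared in data outside the 6 arrays: the authors' deposited Ponceau Red table holds sums of squares, F scores and ratios that a comparison of 3 arrays with 2 would give (5 in all, 3 error degrees of freedom), while 4 water and Ponceau Red arrays are analysed here. Taking the extra array as a control, its value follows from the authors' deposited ratio and the signals of the Ponceau Red and water arrays. Those arrays are among the ones that vit-2 divided, so the implied value is not independent of them. For probe sets with a gap of at least 1 log2, the error sum of squares recomputed with it was within 25% of the deposited one in 72.5%. The remaining probe sets were not reproduced that closely, so the implied values are approximate. The vit-2 signal of the extra array would be 8.70 log2, against 1.75 and 2.22 on the water arrays. In the same way the authors' deposited table implies 10.84 for vit-6, 10.05 for cpg-2, 8.11 for him-3 and 9.0 for col-19, each above every yolk-low reading of its gene. Not all implied values were like the yolk-high signals. For the sperm genes msp-45 and nspd-10 they were 9.33 and 9.53, far above the highest yolk-high signals of 6.94 and 6.46. A value was counted as nearer the yolk-high arrays where it lay past the midpoint of the gap, also if beyond those arrays. Over the 3318 probe sets with a gap of at least 1 log2, this held for 2922 (88.1%) in the authors' deposited table. The probe sets were chosen by their separation on the same arrays and no share over the others was computed, so the count is a description. The 2922 were 1854 of 2163 that read higher and 1068 of 1155 that read lower. From the authors' deposited tartrazine table, which holds fewer of these probe sets, the share was lower, at 294 of 426 (69.0%).

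The sums of squares alone do not tell a further control from a further Ponceau Red array, as both give a median ratio of 1.10 to the deposited error sum of squares. Read as a further Ponceau Red array, the authors' deposited Ponceau Red table would imply -0.42 log2 for vit-2 and -1.81 for him-3. It would also imply values below the lowest of all signals (0.44) for 11.4% of the 3318 probe sets, against 0.121% for a further control. Which array it was is not given in the sources used here.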

How the results depend on the processing

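Counts of probe sets with yolk-high higher and lower were 5709 and 6048 at any gap, and 920 and 301 at 2 log2. With 1 array left out the higher count ran from 2200 to 2481 and the lower from 1217 to 2347, highest without Ponceau Red array 3. By the definition of the gap, leaving out an array cannot lower a count, so these ranges do not show how far the counts could fall. The division was the same by vit-6 or by the median of the vit genes. Centring each array on its median gave all genes a median middle difference of 0.17 log2, against -0.03, and muscle -0.42. In the value table of labelled trials the list medians became 1.61 for DNA replication and mitosis, -0.28 for adult cuticle collagens, -3.62 for furrow collagens, -2.49 for hedgehog-related, -1.30 for heterochronic, -0.66 for vulva, -1.07 for muscle, -1.27 for intestine, -0.40 for desaturases, -0.16 for male neurons and -0.615 for ribosomal proteins. Between the Ponceau Red arrays they were 8.88 for yolk proteins (7.83 between tartrazine and water), 5.33 for yolk uptake and eggshell, 5.84 for oocyte RNA binding, 3.19 for germ line, 2.61 for DNA replication and mitosis, -2.38 for furrow, -0.21 for body shape and -0.19 for numbered collagens, -0.49 for hedgehog-related, -1.21 for moult cycle regulators, -0.59 for vulva, -0.40 for muscle, -0.24 for desaturases and 0.15 for intestine, which reversed; the cause was not tested. With 1 array left out, yolk uptake and eggshell ran from 4.77 to 5.27, germ line from 2.29 to 3.06, body shape collagens from -4.11 to -2.27 and numbered collagens from -1.74 to -1.11. Of the 426 separated probe sets in the authors' deposited tartrazine table, 69.0% had the implied control nearer the yolk-high arrays. Of 126 named genes the gap of 116 under centring and of 102 in the value table moved by less than the spread within the sets, and 0 reversed. Of the 105 with a gap, bli-1 and tba-1 lost it under centring. Signals near the array medians limit how far small differences can be read. No paired analysis was possible because the results come from no test.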

Other observations

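Gene families defined by the letters of their names, with at least 20 coding genes each, also divided between the sets. The share of all coding genes was 11.1% higher and 5.48% lower on the yolk-high arrays at a gap of 1 log2. Mediator subunit genes (mdt), parts of the complex that links transcription factors to RNA polymerase, were higher for 9 of 20. Genes of DnaJ chaperones (dnj) were higher for 10 of 29, of BTB and MATH domain proteins (bath) for 12 of 35 and of SET domain proteins (set), many of them histone methyltransferases, for 10 of 30, and 0 dnj, 1 bath and 0 set genes were lower. Mitochondrial ribosome genes of the large subunit (mrpl) were higher for 8 of 42, while those of the small subunit (mrps), at 3 of 25, were near the share of all coding genes. Innexin genes (inx), for gap junction proteins, went both ways, with 6 higher and 4 lower of 21.

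Among the lower families, Patched-related genes (ptr) were lower for 11 of 24, FMRFamide-like neuropeptide genes (flp) for 12 of 31 and other neuropeptide-like genes (nlp) for 23 of 78, with 0, 1 and 3 higher. Tetraspanin genes (tsp) were lower for 5 of 20. Chemoreceptor families had almost no separated member: of 185 str genes 0 and of 215 srh genes 1 had such a gap. Their median middle differences were -0.06 and -0.05 log2. How many of them read near the array medians was not examined, so the counts do not show stable expression. These families were picked from all those measured after their values were seen.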
